A study of Mus musculus with 2 samples.

Results

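The genes described here are 10 Kupffer cell identity genes, *Clec4f*, *Vsig4*, *Timd4*, *Cd5l*, *Marco*, *Cd163*, *Cd207*, *Spic*, *Id3* and *Nr1h3*, out of 32285 genes listed in each count matrix. They were chosen by name, and the list was drawn up after *Marco* and *Cd163* had been seen to differ between the libraries. The levels of *Marco* and *Cd163* in macrophages are therefore given as a description, and the open question was whether the other 8 genes shared their difference. Liver nuclei were profiled by snRNA-seq in 2 libraries, 1 per genotype, from male C57BL6/J mice. One library is labelled Flox (*Themis* flox/flox, with the word WT in its title) and the other HKO (*Themis* Alb-Cre, in which the albumin promoter directs Cre to hepatocytes and not to macrophages). From an age of 10 to 12 weeks, the mice of both groups ate a MASH diet during 5 months, with 40% of the energy as fat, 20% as fructose and 2% cholesterol, and no chow-fed library was used here. Liver tissue of several mice per genotype was pooled before the nuclei were isolated and sorted.

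Kupffer cells are the resident macrophages of the liver. They sit in the sinusoids, take up particles, dying cells and old erythrocytes from the blood, and keep their identity through signals from neighbouring endothelial cells, stellate cells and hepatocytes that act on factors such as LXRα, ID3 and SPIC. In steatohepatitis, resident cells can be lost and replaced by macrophages derived from monocytes, which acquire CLEC4F early and TIM4 late, and lipid-associated macrophages marked by TREM2 and GPNMB appear.

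Each library was a single pool, so no value has replicates and no test between the groups was possible. Where 2 values stand together, the first is from the Flox-labelled library, and all intervals are 95% intervals that cover counting error only. The libraries held 9363 and 10748 barcodes with 58171337 and 40475938 UMIs (unique molecular identifiers, each standing for 1 captured transcript), and 8659 and 9801 nuclei with median depths of 5966 and 1975 UMIs were kept. They shared 27 barcode sequences. *Themis*, the targeted gene, was at 164 CPM (counts-per-million, a gene's UMIs scaled by all UMIs of the nuclei summed) in hepatocyte nuclei of the Flox-labelled library and 245 CPM in the HKO-labelled one, so the transcript was not lower where the labels place the deletion. Whether the counted 3′ ends lie inside the deleted part is not given in the sources used here. Whether the labels were exchanged was not tested, and an exchange would turn every direction given below. The libraries are therefore called by their labels, and genotype, pool of mice and library cannot be told apart in any difference below.

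Macrophage nuclei were taken as a cluster that carried 14 of 14 macrophage markers, from a clustering in which none of the 10 genes was a feature. It held 505 nuclei with 1128048 UMIs in the Flox-labelled library (5.83% of kept nuclei) and 1386 nuclei with 1969712 UMIs in the HKO-labelled one (14.1%), at median depths of 2116 and 1337.5 UMIs. The name stands for a resemblance to macrophages. Both *Clec4f* and *Cd5l* were among the 10 genes that led the cluster, as was *Mmp12*, a listed gene of lipid-associated macrophages.

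The regulatory sequence just upstream of 3 of the genes that differed most and of 1 that differed least in macrophages is shown to let the reader compare them. The 10 genes lay on 8 chromosomes of GRCm38, among them *Clec4f* (chromosome 6, 83644542 to 83656187, minus strand) and *Cd207* (chromosome 6, 83671215 to 83677857, minus strand), which are neighbours 15027 bases apart with no gene between them. *Nr1h3* overlaps *Gm13783* on its own strand and *Gm23390* on the other in the GENCODE annotation, and no other member overlaps an annotated gene. The effect of the overlaps on the count of *Nr1h3* was not tested. RefSeq promoter entries (GRCm38.p6) were found for 10 of the 10 genes. The 250 bases before the RefSeq start site are given 5′ to 3′ on the strand of the gene, in the order *Marco* (chr1:120505025-120505274, minus), *Cd163* (chr6:124304401-124304650, plus), *Timd4* (chr11:46810549-46810798, plus) and *Cd5l* (chr3:87357631-87357880, plus). Capitals mark GAGGAA or its complement TTCCTC, a purine-rich core of the kind bound by the macrophage factors PU.1 and SPIC.

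Marco: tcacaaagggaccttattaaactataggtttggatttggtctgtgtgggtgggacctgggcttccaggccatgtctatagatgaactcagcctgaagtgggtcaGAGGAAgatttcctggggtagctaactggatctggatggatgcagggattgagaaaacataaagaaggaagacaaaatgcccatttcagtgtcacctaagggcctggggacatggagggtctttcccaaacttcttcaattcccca
Cd163: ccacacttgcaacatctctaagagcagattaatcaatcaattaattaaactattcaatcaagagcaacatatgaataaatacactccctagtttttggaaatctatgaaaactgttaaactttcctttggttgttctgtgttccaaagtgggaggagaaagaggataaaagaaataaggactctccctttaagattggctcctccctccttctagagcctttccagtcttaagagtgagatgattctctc
Timd4: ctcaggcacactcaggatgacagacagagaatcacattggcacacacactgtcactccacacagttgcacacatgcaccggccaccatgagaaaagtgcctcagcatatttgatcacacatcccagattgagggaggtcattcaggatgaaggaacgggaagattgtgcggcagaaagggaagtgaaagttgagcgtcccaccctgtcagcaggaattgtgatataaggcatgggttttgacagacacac
Cd5l: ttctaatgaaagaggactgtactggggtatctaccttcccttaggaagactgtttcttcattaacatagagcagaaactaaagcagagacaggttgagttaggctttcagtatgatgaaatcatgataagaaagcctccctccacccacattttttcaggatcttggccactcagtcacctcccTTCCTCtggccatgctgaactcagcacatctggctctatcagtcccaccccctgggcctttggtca

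GAGGAA was found on either strand in 5 of 10 members, *Vsig4*, *Cd5l*, *Marco*, *Cd207* and *Id3*, while 23.3% of all 32851 promoter windows of this length held it. It thus lay in the window of *Marco*, which differed most between the libraries, and in that of *Cd5l*, which differed least. It was in neither of the windows of *Cd163* and *Timd4*. An AP-1 element spelled TGACTCA was in the window of *Cd207* alone among the members (4.46% of all windows), and TATAAA was in none of them (12.4% of all windows). These matches describe letters in a window and not bound sites.

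In macrophage nuclei all 10 genes were lower in the HKO-labelled library, by factors that ran from 1.11 for *Cd5l* to 14.5 for *Marco*, where 58.9% of all 9974 genes with at least 20 UMIs were lower. At least 2-fold lower were 5 of them, *Marco*, *Cd163*, *Timd4*, *Spic* and *Id3*, and none was 2-fold higher, where 3.80% and 2.41% of all those genes were lower and higher to that extent. *Marco* and *Cd163* had been seen to differ before the list was drawn up, so their part in this count was fixed in advance. Of the other 8 genes, only *Timd4*, *Spic* and *Id3* were past 2-fold. The log2 ratio (HKO over Flox, with a pseudocount of 1 CPM) had a median of -0.86 over the 8 genes other than *Marco* and *Cd163*, beside -0.09 over all genes tested. With edgeR's TMM factors, which took that median of all genes to 0.02 and the share of lower genes to 48.4%, all 10 members were still lower and 4 were past 2-fold, since *Id3* fell short (-0.99). The split of all genes past 2-fold then changed from 379 lower and 240 higher to 279 lower and 297 higher. Just inside the 2-fold limit lay *Id3* at 2.15-fold lower, and just outside it *Vsig4* at 1.93-fold. In this cluster the difference of *Marco* and *Cd163* was thus shared in direction by the other 8 genes, and in size by none of them. Of these, *Nr1h3* (ratio 0.727), *Clec4f* (0.748) and *Cd5l* (0.902) were lowered no more than the sum of 14 macrophage markers (0.721). With TMM factors the log2 ratio of *Cd5l* was -0.04. The direction of 2 of the 8 depended on the setting. *Cd5l* had a log2 ratio above 0 in nuclei chosen by a UMI of *Clec4f*, *Ms4a7* or *Gpnmb* (0.18) and in those with at least 3 macrophage markers (0.11). In the macrophage cluster of a coarser clustering at resolution 0.2 it was 0.01. *Clec4f* was above 0 in the first of these settings (0.03) and after macrophage subsets of the HKO-labelled library had been weighted by the Flox shares (0.20). Both settings choose or weight nuclei by *Clec4f* UMIs, so they cannot show its direction apart from that choice.

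**Figure D1:**
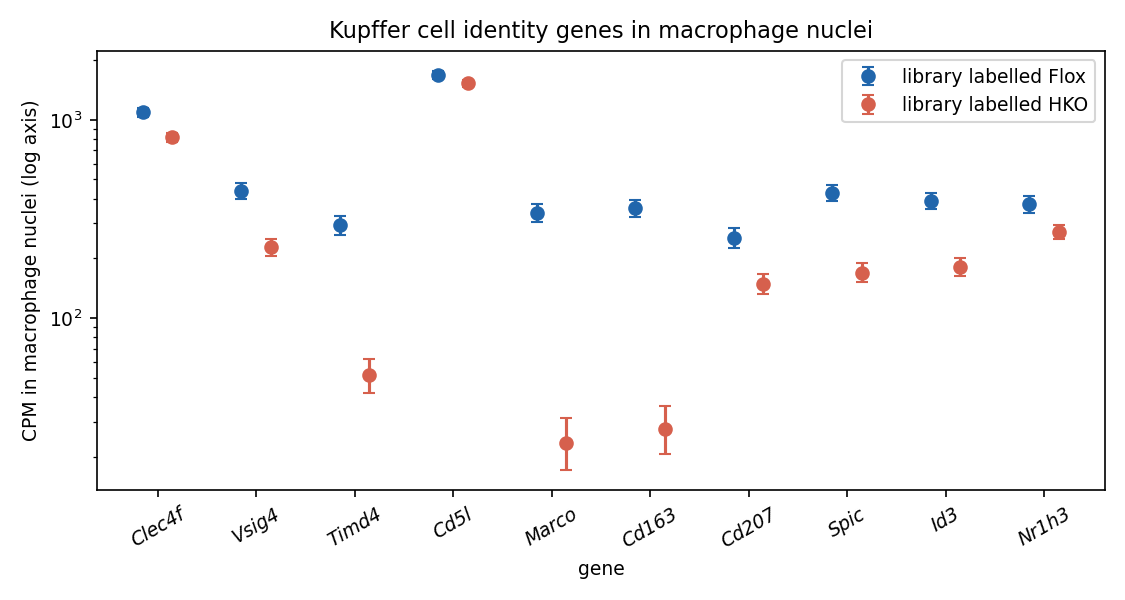
CPM of the 10 genes in macrophage nuclei on a log axis, with 1 point per library and bars for exact 95% Poisson intervals of the counts. The points of *Marco* and *Cd163* fall from 340 and 358 CPM in the Flox-labelled library to 23.4 and 27.4 CPM in the HKO-labelled one, whereas those of *Cd5l* stay at 1691 and 1525 CPM.

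The scavenger receptor cysteine-rich proteins spanned the whole range. *Marco*, a class A scavenger receptor for bacteria and unopsonized particles, had 383 UMIs (340 CPM, 306 to 375) in the Flox-labelled library and 46 UMIs (23.4 CPM) in the HKO-labelled one, a 14.5-fold lower level (10.7 to 20.2). *Cd163*, the receptor for haptoglobin-haemoglobin complexes, had 404 UMIs (358 CPM) and 54 UMIs (27.4 CPM), a 13.1-fold lower level (9.82 to 17.7). *Cd5l*, a secreted protein also called AIM that protects macrophages from apoptosis, had 1907 UMIs (1691 CPM) and 3003 UMIs (1525 CPM), a 1.11-fold lower level (1.05 to 1.18). *Marco* and *Cd163* ranked 6th and 7th from the lowest of 9974 genes by log2 ratio, and *Cd5l* ranked 4431st.

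The remaining *Marco* signal of the HKO-labelled library lay in few nuclei. UMIs of *Marco* were found in 99 of 505 macrophage nuclei of the Flox-labelled library, at 3.87 UMIs per positive nucleus, and in 22 of 1386 nuclei of the HKO-labelled one. A single nucleus held 13 of the 46 UMIs there, and with the highest nucleus of each library left out the level was 19.2-fold lower. For *Cd163*, 127 nuclei were positive in the Flox-labelled library and 34 in the HKO-labelled one, with at most 29 and 7 UMIs in 1 nucleus, and the level without those nuclei was 13.9-fold lower. Among the other members, *Timd4* moved the most when its highest nuclei were left out, to 286 and 47.7 CPM.

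The immunoglobulin-domain receptors differed from each other. *Timd4*, which encodes the phosphatidylserine receptor TIM4 of long-resident macrophages, had 331 UMIs (293 CPM) and 101 UMIs (51.3 CPM), a 5.72-fold lower level (4.57 to 7.22) that ranked 22nd from the lowest. *Vsig4*, the complement receptor CRIg, had 493 UMIs (437 CPM) and 447 UMIs (227 CPM) and was 1.93-fold lower (1.69 to 2.19). The intervals of these 2 ratios do not meet.

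Of the C-type lectins, *Clec4f*, whose protein binds galactose-bearing glycans and in mice marks Kupffer cells, had 1229 UMIs (1089 CPM) and 1606 UMIs (815 CPM) and was 1.34-fold lower (1.24 to 1.44). *Cd207*, which encodes langerin, had 286 UMIs (254 CPM) and 292 UMIs (148 CPM) and was 1.71-fold lower (1.45 to 2.02). The genes are neighbours on chromosome 6, and the intervals of their folds only just fail to meet, at 1.44 and 1.45. These intervals do not cover the lying of several UMIs in 1 nucleus, at most 26 of *Clec4f* and 14 of *Cd207* in the Flox-labelled library.

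Among the transcriptional regulators, *Spic*, a PU.1-related factor needed for macrophages that recycle iron, had 482 UMIs (427 CPM) and 334 UMIs (170 CPM) and was 2.52-fold lower (2.19 to 2.91). *Id3*, an inhibitor of basic helix-loop-helix factors on which Kupffer cell development depends, had 439 UMIs (389 CPM) and 357 UMIs (181 CPM) and was 2.15-fold lower (1.86 to 2.48). *Nr1h3*, which encodes the oxysterol receptor LXRα, had 422 UMIs (374 CPM) and 536 UMIs (272 CPM) and was 1.38-fold lower (1.21 to 1.57). With the 10 folds in order from *Marco* to *Cd5l*, neighbours had intervals apart at 3 places, between *Cd163* and *Timd4*, between *Timd4* and *Spic* and between *Clec4f* and *Cd5l*. All other neighbours in that order had intervals that overlap.

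**Figure D2:**
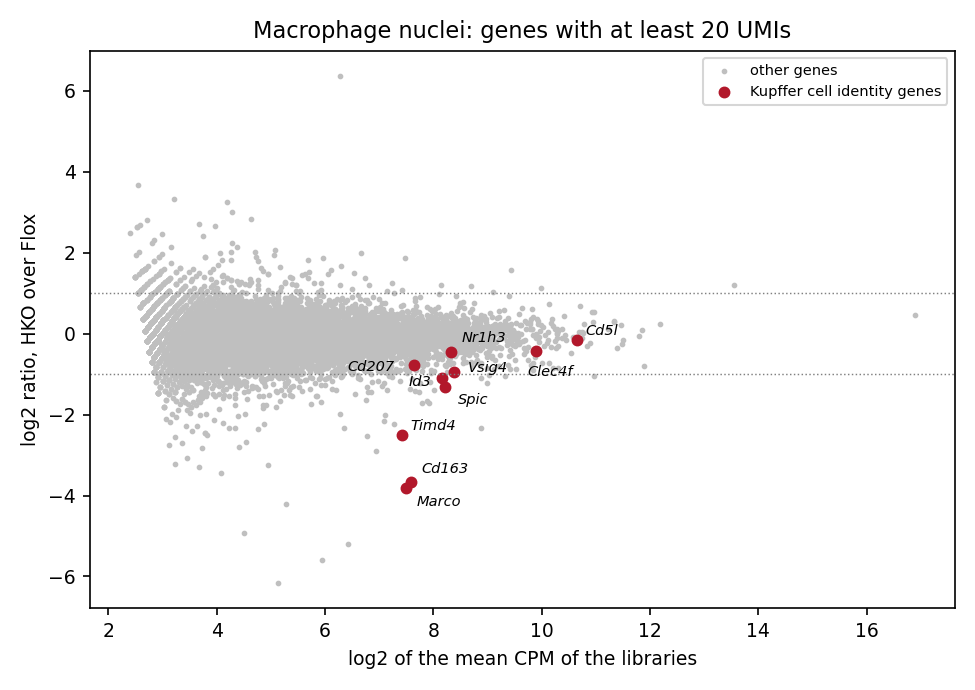
Log2 ratio of HKO over Flox against the log2 of the mean CPM for the 9974 genes with at least 20 UMIs in macrophage nuclei, 1 grey point per gene, with the 10 genes in red and dotted lines at 2-fold. *Marco*, *Cd163* and *Timd4* sit apart from the cloud at -3.81, -3.66 and -2.49, and *Cd5l*, *Clec4f* and *Nr1h3* lie within it.

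Depth differed between the libraries, and shares of positive nuclei were therefore compared after each macrophage nucleus had been thinned to 1000 UMIs, which left out 18 and 312 shallower nuclei and kept 487 and 1074. For 8 of the 10 genes the share in the HKO-labelled library had an interval wholly below that of the Flox-labelled library. *Marco* was found in 14.6% (11.6 to 18.0) and 1.40% (0.784 to 2.29) of the thinned nuclei, *Cd163* in 18.5% and 2.14%, and *Timd4* in 18.7% and 4.56%. *Spic* was found in 26.5% and 12.5%, *Id3* in 30.8% and 15.3%, *Vsig4* in 33.7% and 20.7%, *Nr1h3* in 29.0% and 21.9% and *Clec4f* in 53.8% and 38.8%. The shares of *Cd207* (15.8% and 11.8%) and *Cd5l* (70.4% and 68.8%) had intervals that overlap.

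Without thinning, at median depths of 2116 and 1337.5 UMIs, *Marco* was found in 19.6% and 1.59% of macrophage nuclei and *Cd5l* in 83.2% and 68.0%. In hepatocyte nuclei thinned to the same depth (unthinned medians of 7455 and 5832 UMIs), which should lack the receptors, *Marco* was found in 0.0871% of 5742 nuclei and 0 of 4415, which allows a share of up to 0.0680% by a limit of 3 counts. *Cd5l* was found in 0.209% and 0.566% of those nuclei and *Clec4f* in 0.174% and 0.181%. The macrophage shares of the 8 genes other than *Id3* and *Nr1h3* were well above these values in both libraries. Thinned hepatocyte nuclei carried *Id3* in 8.46% and 5.57% and *Nr1h3* in 5.56% and 6.14%.

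Whether the differences lay within 1 kind of macrophage was examined with 3 genes as gates, *Clec4f* for Kupffer cells, *Gpnmb* for lipid-associated macrophages and *Ms4a7* for monocyte-derived macrophages. Nuclei with a *Clec4f* UMI made up 65.3% (61.0 to 69.5) of the macrophage nuclei in the Flox-labelled library and 41.0% (38.4 to 43.6) in the HKO-labelled one. This gate also takes nuclei with a *Gpnmb* or *Ms4a7* UMI: of its 330 and 568 nuclei, 180 and 345 had neither. Nuclei with a *Gpnmb* or *Ms4a7* UMI and none of *Clec4f* made up 18.8% and 34.3%, and those with none of the 3 genes 15.8% and 24.7%. The gates depend on depth, with medians of 2177.5 and 1433.5 UMIs in *Clec4f* nuclei, 2057 and 1318.5 in the second gate and 1692.5 and 1177 in the third.

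Within *Clec4f* nuclei, 4 of the 9 other members were at least 2-fold lower in the HKO-labelled library, beside 4.54% of 8433 genes. They were *Marco*, *Cd163*, *Timd4* and *Id3*. *Marco* and *Cd163* had been seen to differ before the list was drawn up. Of the 7 members apart from these and *Clec4f*, only *Timd4* and *Id3* were past 2-fold. *Marco* had 351 and 26 UMIs in the 330 and 568 nuclei of this gate and was 15.4-fold lower (10.3 to 23.8), and *Cd163* had 379 and 48 UMIs and was 8.98-fold lower (6.64 to 12.4). *Timd4* was 4.22-fold lower (3.29 to 5.48) and *Id3* 2.30-fold lower (1.89 to 2.79). *Spic* was 1.84-fold lower (1.54 to 2.20), *Cd207* 1.69-fold, *Vsig4* 1.57-fold and *Nr1h3* 1.41-fold. The ratio of *Cd5l* was 1.03 (0.954 to 1.10), an interval that includes equal levels. The median log2 ratio of the 7 members other than *Clec4f*, *Marco* and *Cd163* was -0.75 in this gate, and that of all genes tested was -0.10. In the *Clec4f* nuclei without a *Gpnmb* or *Ms4a7* UMI, *Marco* was 9.9-fold (6.2 to 16.6) and *Cd163* 5.3-fold (3.8 to 7.7) lower. *Timd4* was 3.6-fold and *Id3* 2.3-fold lower there, and *Cd207* 1.28-fold, with an interval that includes 1 (0.85 to 1.93).

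In nuclei with a *Gpnmb* or *Ms4a7* UMI and no *Clec4f* UMI, 6 of the 9 other members were at least 2-fold lower, beside 5.64% of 6418 genes. This count includes *Marco* and *Cd163*, which had been seen to differ beforehand, and otherwise *Timd4*, *Cd207*, *Spic* and *Vsig4*. *Marco* had 14 and 2 UMIs there, *Cd163* 17 and 4 and *Timd4* 19 and 5, so that these ratios rest on few counts. *Spic* had 85 and 73 UMIs and was 3.70-fold lower (2.68 to 5.14), and *Cd207* had 101 and 98 UMIs and was 3.28-fold lower (2.46 to 4.37). Both folds were larger than in *Clec4f* nuclei by intervals that do not meet. *Vsig4* was 2.42-fold lower, *Id3* 1.48-fold (1.04 to 2.07) and *Nr1h3* 1.42-fold.

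Nuclei with none of the 3 gate genes held 18 *Marco* UMIs in each library. *Marco* was 2.95-fold lower in this gate (1.45 to 6.02), *Spic* 3.40-fold and *Id3* 2.22-fold, and the ratio of *Nr1h3* was 1.12 (0.781 to 1.62). A single nucleus held 13 of the 46 *Marco* UMIs of the HKO-labelled library, and the second gate held only 2 of the 46. That nucleus therefore lay in this gate or among the *Clec4f* nuclei, and its part in either *Marco* ratio was not tested. When the 3 gates of the HKO-labelled library were weighted by their shares of UMIs in the Flox-labelled library, *Marco* was still 12.95-fold, *Cd163* 9.16-fold and *Timd4* 4.28-fold lower. *Cd207* went from 1.71-fold to 2.01-fold lower and *Clec4f* from 1.34-fold lower to a level above that of the Flox-labelled library, 1251 against 1089 CPM. The latter follows from *Clec4f* being a gate itself: its positive nuclei were a smaller share in the HKO-labelled library.

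**Figure D3:**
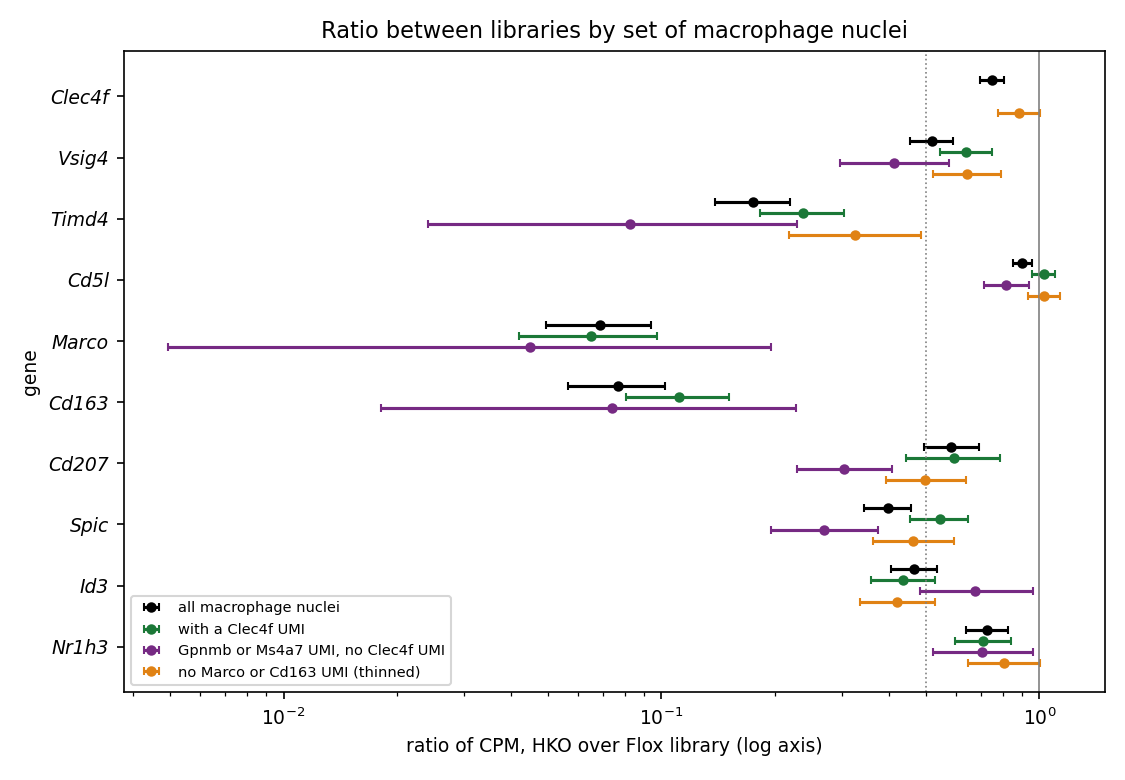
Ratio of CPM, HKO over Flox, on a log axis for each gene in 4 sets of macrophage nuclei, with exact 95% intervals. A solid line marks equal levels and a dotted line a 2-fold lower level. *Clec4f* is not drawn in the gates that use it, nor are *Marco* and *Cd163* in nuclei without them. *Marco*, *Cd163* and *Timd4* lie left of the dotted line in each set where they are drawn, and *Cd5l* lies near the solid line in all 4.

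The gate named in the selection rule, any nucleus with a UMI of *Clec4f*, *Ms4a7* or *Gpnmb* whatever its cluster, took 610 and 1340 nuclei, of which 83 and 116 were hepatocyte nuclei that held 41.4% and 29.9% of its UMIs. With it, 3 members were at least 2-fold lower, *Marco* at 18.1-fold (204 and 11.3 CPM), *Cd163* at 8.75-fold (207 and 23.7 CPM) and *Timd4* at 4.80-fold, beside 5.30% of 11994 genes. The rule named *Marco* and *Cd163* for their difference beforehand, and of the remaining members only *Timd4* was past 2-fold. *Spic* was 1.90-fold and *Id3* 1.73-fold lower. *Clec4f* (674 and 687 CPM) had a ratio of 1.02 (0.951 to 1.09), and *Cd5l* (879 and 1000 CPM) was higher in the HKO-labelled library, at a ratio of 1.14 (1.07 to 1.21). The direction of *Clec4f* and *Cd5l* thus depended on which nuclei were summed, and that of the other 8 genes did not between these 2 choices. Hepatocyte UMIs enter the totals of this gate in unequal shares, and *Clec4f* is itself a gate gene. The part of either in these ratios was not tested.

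The other 8 genes were next compared between nuclei with and without *Marco* or *Cd163*, a choice made after the values above had been seen. Among thinned macrophage nuclei, 136 of 487 in the Flox-labelled library (27.9%, 24.0 to 32.1) and 35 of 1074 in the HKO-labelled one (3.26%, 2.28 to 4.50) had a UMI of either gene. Unthinned, 49 nuclei of the Flox-labelled library had both genes, which was 49.5% of those with *Marco* and 38.6% of those with *Cd163*. In the HKO-labelled library, 5 nuclei had both.

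Within the Flox-labelled library, the nuclei with *Marco* or *Cd163* carried 4.16 times as much *Timd4* as those without (640 against 154 CPM, ratio interval 2.93 to 5.95) and 2.14 times as much *Spic* (721 against 336 CPM, 1.62 to 2.83). *Clec4f* was 1.52 times as high in them, and *Vsig4* 1.501 times (603 against 402 CPM, 1.13 to 1.98). *Cd207* was lower in them, at 88.2 against 328 CPM (ratio 0.269, 0.135 to 0.489), while *Id3* (397 and 405 CPM) and *Nr1h3* (397 and 345 CPM) had ratios whose intervals include 1. In the HKO-labelled library the 35 positive nuclei showed *Timd4* 5.71 times (2.59 to 11.4), *Spic* 2.93 times (1.64 to 4.91) and *Clec4f* 2.31 times (1.78 to 2.97) as high as the other nuclei, while *Vsig4* had a ratio whose interval includes 1 (200 against 258 CPM, 0.775, 0.309 to 1.62). *Cd207* had 2 UMIs in them (57.1 against 164 CPM, ratio 0.349, 0.0420 to 1.28). *Timd4*, *Spic* and *Clec4f* were thus found with *Marco* and *Cd163* in either library, and *Cd207* mostly outside them in the Flox-labelled library.

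Among the 351 and 1039 thinned nuclei with neither gene, 3 of the other 8 genes, *Timd4*, *Spic* and *Id3*, were at least 2-fold lower in the HKO-labelled library on the log2 scale with a pseudocount, beside 4.66% of 7893 genes. The same 3 genes were past 2-fold among all thinned macrophage nuclei. The median log2 ratio of the 8 was -0.82, beside -0.77 among all thinned nuclei. *Timd4* was 3.07-fold lower there (154 and 50.1 CPM, ratio 0.325, 0.218 to 0.485), *Id3* 2.38-fold (405 and 170 CPM), and *Spic* 2.16-fold (336 and 156 CPM). *Cd207* lay just short of 2-fold on that scale, at a log2 ratio of -0.997 (328 and 164 CPM), beside -0.70 among all thinned nuclei. *Vsig4* was 1.56-fold lower. *Clec4f* (ratio 0.883, 0.777 to 1.006), *Nr1h3* (0.804, 0.648 to 1.003) and *Cd5l* (1.03, 0.931 to 1.13) had intervals that reach 1. Between all thinned nuclei and those without *Marco* or *Cd163*, the fold of *Timd4* went from 5.01 to 3.07, that of *Spic* from 2.68 to 2.16 and that of *Id3* from 2.35 to 2.38. Since a nucleus of 1000 UMIs can hold either transcript without showing it, the nuclei without a UMI are not nuclei without expression.

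**Figure D4:**
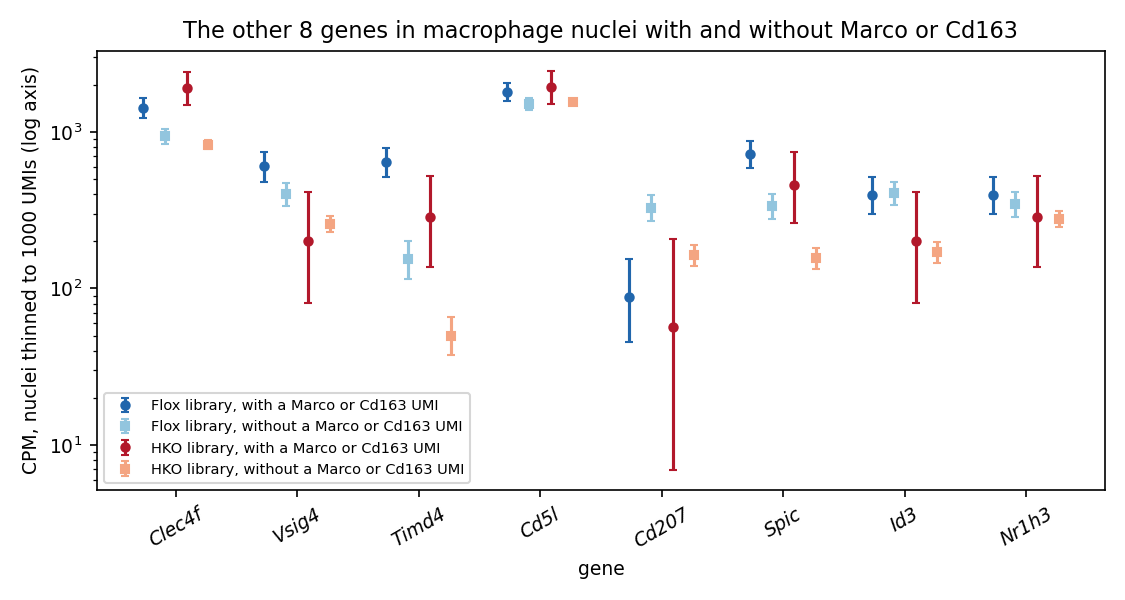
CPM of the other 8 genes on a log axis in macrophage nuclei thinned to 1000 UMIs, for each library in nuclei with (circles) and without (squares) a UMI of *Marco* or *Cd163*, with exact 95% Poisson intervals. The circles lie above the squares for *Timd4* and *Spic* in both libraries and below them for *Cd207*, and the pale squares of the HKO-labelled library lie below those of the Flox-labelled library for *Timd4*, *Spic*, *Id3*, *Cd207* and *Vsig4*.

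Across 8 named classes of nuclei (macrophage, proliferating, hepatocyte, endothelial, HSC, cholangiocyte, T cell and B cell), 7 of the 10 genes were highest in macrophages in both libraries: *Clec4f*, *Vsig4*, *Timd4*, *Cd5l*, *Cd207*, *Spic* and *Nr1h3*. For *Marco* in the Flox-labelled library, the proliferating class (351 CPM) and macrophages (340 CPM) did not differ beyond counting error. For *Cd163* in the HKO-labelled library the proliferating class rested on 10 UMIs (43.4 CPM, beside 27.4 CPM in macrophages). Hepatocyte nuclei held *Clec4f* at 1.75 and 1.90 CPM and *Cd163* at 0.284 and 0.0365 CPM, and the hepatocyte level of each of the 8 genes other than *Id3* and *Nr1h3* was at most 0.434% of the macrophage level of the same library.

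*Id3* and *Nr1h3* were not specific to macrophages. *Id3* was at 396 and 262 CPM in endothelial nuclei, 221 and 187 CPM in HSC nuclei and 94.3 and 64.4 CPM in hepatocytes. In the Flox-labelled library its macrophage (389 CPM) and endothelial levels did not differ beyond counting error, while in the HKO-labelled one its macrophage level (181 CPM) was below the endothelial one and did not differ from that of HSCs beyond counting error. The HKO over Flox ratio of *Id3* was below 1 in endothelial nuclei (0.662, 0.572 to 0.764), hepatocytes (0.683, 0.646 to 0.722) and HSCs (0.843, 0.723 to 0.983), beside 0.466 (0.404 to 0.537) in macrophages. *Nr1h3* was at 56.2 and 59.2 CPM in hepatocytes, where its ratio was 1.05 (0.989 to 1.12), and at 6.25 and 6.30 CPM in endothelial nuclei.

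**Figure D5:**
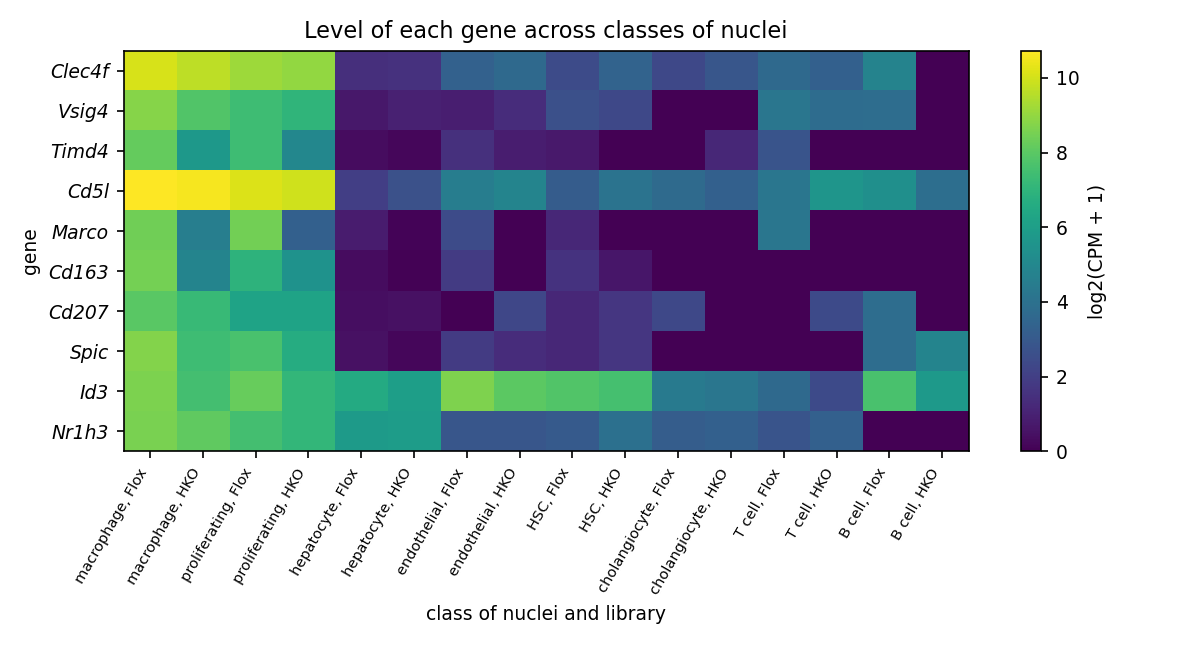
Level of each gene as log2(CPM + 1), shown by colour, in 8 classes of nuclei (columns, the Flox-labelled library first). The bright block at the left holds the macrophage and proliferating classes. The rows of *Id3* and *Nr1h3* carry signal in other classes as well. Classes with few UMIs, such as B cells with 75558 and 73241 UMIs, show single UMIs as moderate levels.

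The low hepatocyte levels of *Marco* and *Cd163* differed between the libraries in the same direction as their macrophage levels. Hepatocyte nuclei held 34 and 2 UMIs of *Marco* (0.742 and 0.0729 CPM, ratio 0.0983, 0.0114 to 0.383) and 13 and 1 of *Cd163*. *Cd5l* had 137 and 148 UMIs in hepatocytes (2.99 and 5.40 CPM, ratio 1.80, 1.42 to 2.29). The hepatocyte ratios of *Vsig4* (1.61, 0.913 to 2.83), *Cd207* (1.23, 0.509 to 2.85) and *Clec4f* (1.09, 0.751 to 1.56) had intervals that include 1. The part of free RNA in these low levels was not tested. Macrophages made up 5.83% of kept nuclei in the Flox-labelled library and 14.1% in the HKO-labelled one.

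The proliferating class, of 52 and 110 nuclei, met 10 of 10 proliferation markers and carried macrophage markers too. *Marco* had 58 and 2 UMIs there (351 and 8.67 CPM), *Timd4* 28 and 7 UMIs (169 and 30.3 CPM) and *Cd163* 20 and 10 UMIs (121 and 43.4 CPM). *Clec4f* (569 and 507 CPM) and *Cd5l* (1143 and 997 CPM) had ratios of 0.892 (0.674 to 1.18) and 0.872 (0.716 to 1.06), with intervals that include 1. A further small cluster, which stayed unnamed because markers of another cell type were nearly as frequent in it, held 28 nuclei in the Flox-labelled and 2 in the HKO-labelled library. *Cd163* (381 CPM in the former) led its genes together with *Il1b*, *Spic* and *Timd4*, and *Marco* was at 229 CPM.

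Of 21 further listed Kupffer cell genes, 20 had at least 20 UMIs, 19 of them were lower in the HKO-labelled library (58.9% of all genes), 2 at least 2-fold (3.80% of all genes), and their median log2 ratio was -0.67. *Fcna*, a soluble lectin of the complement system, was at 124 and 30.5 CPM (4.07-fold lower, 2.99 to 5.61), *Pcolce2* was 2.27-fold lower and the haem oxygenase *Hmox1* 1.97-fold lower. *Vcam1* was the 1 gene higher there (421 and 511 CPM, ratio 1.21), and *Slc1a3* and *Fabp7* had ratios of 0.859 and 0.775. Other scavenger receptors showed no common direction, with 6 of 12 lower and a median of 0.02 (4 lower and 0.13 with TMM factors). *Colec12* was 2.38-fold and *Cd68* 1.58-fold lower, and *Scarb2* 1.25-fold, whereas *Cd36*, a fatty acid and lipoprotein receptor, was at 148 and 260 CPM (ratio 1.76, 1.47 to 2.10), *Axl* had a ratio of 1.34 and *Scarb1* of 1.13.

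Targets of LXRα did not follow *Nr1h3* as a group: 3 of 9 tested were lower and the median was 0.15 (2 and 0.26 with TMM factors). *Mylip*, which drives LDL receptor degradation, had a ratio of 1.89 (1.59 to 2.26), the cholesterol exporter *Abca1* of 1.40 (1.28 to 1.52) and *Srebf1* of 1.37 (0.963 to 1.96), while *Pltp* was 1.48-fold lower, *Lpcat3* had a ratio of 0.711 (0.503 to 1.01) and *Apoe* of 0.965, which lay above 1 with TMM factors. Of 18 macrophage transcription factors, 13 were lower, none 2-fold, and the median was -0.16, or 10 lower and -0.05 with TMM factors. Both counts lie near the shares of all genes that were lower, 58.9% and 48.4%. *Nr1h2* (LXRβ), *Rxra* and *Cebpa* had ratios of 0.631, 0.698 and 0.746, *Irf8* of 1.12 and *Rbpj*, the effector of Notch signalling, of 1.87 (1.43 to 2.48), and *Pparg* had 14 and 60 UMIs (ratio 2.45, 1.36 to 4.76). Of 15 niche ligands and receptors, 8 were tested, 7 were lower and none 2-fold (median -0.30), beside 58.9% of all genes lower. *Tgfbr2* was 1.93-fold lower, *Csf1r* 1.29-fold and *Bmpr2* 1.26-fold. *Tgfbr1* had a ratio of 1.21, and those of *Notch2* (0.862) and *Acvrl1* (0.814) had intervals that include 1.

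Genes of lipid-associated macrophages went the other way. All 11 tested were higher in the HKO-labelled library (41.1% of all genes), 4 at least 2-fold (2.41% of all genes), with a median of 0.74. *Atp6v0d2* was at 22.2 and 80.7 CPM (ratio 3.64, 2.38 to 5.80), *Mmp12* at 348 and 1043 CPM (2.99) and the lipid receptor *Trem2* at 67.4 and 157 CPM (2.34, 1.81 to 3.04), while *Ctsd*, *Lgals3* and *Fabp5* had ratios of 1.03, 1.07 and 1.20 with intervals that include 1. Genes of monocyte-derived macrophages had no common direction, with 3 of 6 lower and a median of 0.03. The chemokine receptor *Ccr2* (ratio 1.89, 1.49 to 2.41) and *Cx3cr1* (1.69) were higher, *Fn1* had a ratio of 1.22 (0.824 to 1.83), and *Ms4a7* (0.864), *Itgam* (0.563) and *Plac8* (36 and 11 UMIs, 0.175) were lower.

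Of all genes with at least 100 UMIs in macrophage nuclei, *Marco* and *Cd163* were the 3rd and 4th of the 5 with the lowest ratios. The others were *Mup11*, a major urinary protein of hepatocytes (137 and 3 UMIs), the B cell chemoattractant *Cxcl13* (189 and 7 UMIs, 168 and 3.55 CPM) and the immunoglobulin gene *Igkc* (246 and 56 UMIs). *Mup11* differed in the same direction in hepatocyte nuclei, at 451 and 6.97 CPM. The highest were the immunoglobulin gene *Iglc3* (1 and 304 UMIs), *Lat2* (ratio 4.42), *Myo5a* (4.08), *Mical2* (4.05) and *Gm21188* (3.67). Their part in the differences of the identity genes was not tested.

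Markers of other cell types were found in the macrophage nuclei and moved in either direction. The summed level of 10 hepatocyte markers was 1826 and 1188 CPM, all 10 with a UMI in both libraries. The 10 plasma cell markers summed to 704 and 553 CPM, with *Tnfrsf17* at 0 in the Flox-labelled library. Markers of B cells (435 and 291 CPM) lacked *Pax5* in both libraries, and those of dendritic cells (438 and 460.5 CPM) lacked *Siglech* and *Cd209a* in both. Neutrophil markers summed to 151 and 161 CPM, with 6 of 8 at 0 in the Flox-labelled library and 2 of 8 in the HKO-labelled one. HSC markers summed to 238.5 and 277 CPM, endothelial to 299.6 and 244 CPM, cholangiocyte to 48.8 and 73.1 CPM and T cell to 50.5 and 84.3 CPM. Proliferation markers were at 207 and 83.3 CPM. The 14 macrophage markers summed to 10073 and 7266 CPM, so that macrophage markers as a whole were also lower in the HKO-labelled library (ratio 0.721). The part of these sums in the differences was not tested.

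The genes with the most similar pattern were sought over the 16 pairs of class and library by Pearson's r of log2(CPM + 1), among 5298 genes with at least 100 UMIs in macrophages. Points of a library share its depth and free RNA, and r is a description. Nearest to the mean of the 8 other members were *Treml4* (r = 0.983, HKO over Flox ratio in macrophages 0.483), *Gm14221* (0.979, ratio 0.737), *P2ry12* (0.978, ratio 0.389), *Gm34589* (0.978, ratio 1.02) and *Tlr13* (0.977, ratio 0.769). Nearest to the mean of *Marco* and *Cd163* were *Emilin2* (r = 0.967, ratio 0.303), *P2ry12* (0.954), the formyl peptide receptor *Fpr1* (0.952, ratio 0.244), *Treml4* (0.947) and *Rims3* (0.941, ratio 0.745).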

How the data were processed

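The authors deposited, for each of 2 libraries, a matrix of raw UMI counts (genes by barcodes). Cell Ranger 8.0.1 had been run against mm10 (GRCm38), leaving out intronic reads. No normalization had been applied. Barcodes needed 300 detected genes, and genes 3 barcodes. The highest Scrublet scores (scanpy 1.11.5, 0.8% per 1000 barcodes) were removed as doublets, 701 and 920 barcodes. Libraries were integrated by canonical correlation analysis in Seurat 5.3.0 (3000 variable features, 15 components), with the 10 genes and the lists for lipid-associated and monocyte-derived macrophages left out (2970 features). The resolution of the study, 0.2, merged macrophages with dendritic and plasma cell nuclei, so 0.4 was used after the clusters had been seen. A cluster was named from at least 3 markers at 1.5 times the median over clusters, and names stand for resemblance. This scale, in place of all other nuclei, and the exemption of proliferating nuclei from the rule on second types were also settled after the clusters had been seen.

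For each class and library, UMIs were summed and scaled to CPM. Intervals are exact Poisson (CPM), conditional binomial (ratios) or Clopper-Pearson (shares). Log2 ratios carry a pseudocount of 1 CPM, and genes needed 20 UMIs over both libraries. With 1 library per group no test was made. All 10 members were named, and of each other list up to 3 genes with the lowest and 3 with the highest log2 ratio, of all genes with at least 100 UMIs the 5 lowest and 5 highest, and the 5 most similar to either profile. The members and lists were chosen with earlier results of these data known. Code was tested on simulated data. Promoters were taken from RefSeq (GRCm38.p6) and gene positions from GENCODE. TMM factors came from edgeR, and the alternatives stand in the closing section.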

Additional observations from a re-analysis of the deposited data

Results flagged for a closer look

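*Cd5l* differed between the libraries in opposite directions in macrophage nuclei and in 2 other named classes. The counting intervals exclude 1, though that of HSC nuclei only barely. The HKO over Flox ratio of *Cd5l* was 0.902 (0.851 to 0.956) in macrophage nuclei, 1.80 (1.42 to 2.29) in hepatocyte nuclei and 2.03 (1.001 to 4.39) in HSC nuclei. The hepatocyte value rests on 137 and 148 UMIs and that of HSCs on 12 and 28 UMIs, at 2.99 and 5.40 CPM and 7.77 and 15.8 CPM beside 1691 and 1525 CPM in macrophages. The macrophage ratio depended on the nuclei chosen, at 1.14 (1.07 to 1.21) with the gate of *Clec4f*, *Ms4a7* or *Gpnmb*, which also took hepatocyte nuclei. In the macrophage cluster its log2 was -0.04 with TMM factors. Ratios with intervals above 1 were also found in 2 unnamed clusters, at 2.69 (8 and 24 UMIs) and 1.91 (19 and 48 UMIs). The hepatocyte levels were 0.18% and 0.35% of the macrophage levels, and the part of free RNA in the levels outside macrophages was not tested. With 1 library per group, the difference between classes was not tested.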

How the results depend on the processing

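No paired analysis was possible because each group had 1 library, and no library could be left out. With nuclei chosen by a UMI of *Clec4f*, *Ms4a7* or *Gpnmb*, 3 members were at least 2-fold apart in place of 5 (*Spic* and *Id3* fell short). Both counts include *Marco* and *Cd163*, which had been seen to differ beforehand. The median log2 ratio of the members other than *Marco* and *Cd163* was -0.57 in place of -0.86. Hepatocyte nuclei held 41.4% and 29.9% of the UMIs of that choice, and their part in these changes was not tested. With nuclei chosen by at least 3 macrophage markers the same median was -0.52. In both settings *Cd5l* was higher in the HKO-labelled library, and at resolution 0.2 its levels were nearly equal (log2 ratio 0.01). The count was 4 with TMM factors, which moved the median of all genes from -0.09 to 0.02. Over 11 settings, 105 of 110 ratios of single members stayed below 1, and 28 left their counting interval. *Marco* ranged from -4.06 to -3.39, *Cd163* from -3.66 to -3.08 and *Timd4* from -2.64 to -2.08 on the log2 scale. The counts in *Clec4f* nuclei (3 or 4), of genes highest in macrophages (7 or 8) and of shares apart (8 or 10) moved by less than 1.5 times. The macrophage cluster at resolution 0.2, the wider class with proliferating nuclei, the weighted gates and the settings for the last 2 of these counts were chosen after seeing the data. Depth limits *Marco* and *Cd163* in the HKO-labelled library, at 46 and 54 UMIs.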
